A study of Mus musculus with 6 samples.

Results

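The genes described here encode the constitutive proteasome with its assembly factors, its bound deubiquitinases and NRF1 (symbol Nfe2l1), the transcription factor of the subunit genes. They were chosen by symbol, as all rows whose symbol starts with Psma to Psmg followed by a number, plus Pomp, Adrm1, Nfe2l1, Usp14 and Uchl5, and without the immunoproteasome genes Psmb8, Psmb9, Psmb10, Psme1 and Psme2. This gave 51 of the 22105 genes in the table, and 49 of them passed the filter on low counts. The cells were 4T1, an established mouse mammary carcinoma line that serves as a model of triple-negative breast cancer. They were treated for 24 h with the vehicle DMSO or with P3FI-90, an inhibitor of the histone demethylase KDM3B, at 10 µM, and 3 libraries were sequenced per group. Since the labels do not say whether the 3 libraries of a group came from separate cultures, the p-values measure the spread between these libraries only.

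The proteasome degrades proteins tagged with ubiquitin. Its 20S core is a barrel of alpha and beta rings, in which some beta subunits cut the substrate and the alpha rings gate the entry. The 19S particle caps the barrel, with a base whose ATPases unfold the substrate and a lid that removes the ubiquitin. All these subunits are needed in a fixed stoichiometry, dedicated chaperones put them together, and NRF1 is known to raise the transcription of the subunit genes together when proteasome activity falls. In immune responses interferon induces alternative catalytic subunits, which form the immunoproteasome.

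NRF1 binds with small MAF proteins to the antioxidant response element, and the core of this element was therefore searched in the promoters of the members as background to the results below. The motif was TGACNNNGC on either strand, in RefSeq windows from 250 bases before to 50 bases after the start of transcription on GRCm38.p6, and windows were found for 42 of the 51 members. The core was present in 8 of these 42 genes (exact Clopper-Pearson 95% interval of the share 8.60% to 34.1%), and in 15.5% of the 15423 genes of the table with such a window. The 8 matches are shown in capitals with up to 10 bases on each side, written 5′ to 3′ on the strand of the gene, because these are the members whose windows hold the letters of the element.
Psmb5 (chr14:54618024-54618052, minus strand): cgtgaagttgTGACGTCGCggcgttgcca
Psmb6 (chr11:70525338-70525366, plus strand): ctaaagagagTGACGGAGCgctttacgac
Psmc6 (chr14:45329587-45329615, plus strand): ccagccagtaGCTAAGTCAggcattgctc
Adrm1 (chr2:180171416-180171444, plus strand): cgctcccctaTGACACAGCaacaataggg
Psmd12 (chr11:107479278-107479299, plus strand): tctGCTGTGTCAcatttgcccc
Psmd9 (chr5:123228149-123228177, plus strand): atctagccggTGACCCCGCccacttccaa
Psme4 (chr11:30771758-30771786, plus strand): cgctgcggctGCAGCGTCAccagaagagc
Uchl5 (chr1:143777234-143777262, plus strand): gcgcggcaggTGACGGCGCccggaggctg
In Psmc6, Psmd12 and Psme4 the motif lies on the opposite strand, so that its reverse complement is printed. The match begins 9 bases before the start of transcription in Psmb6 and 31 bases before it in Psmd9. These genes changed in opposite directions after P3FI-90, as given below, and the 250 bases before the start are shown for both for this reason, with the match in capitals.
Psmb6 (chr11:70525107-70525356, plus strand): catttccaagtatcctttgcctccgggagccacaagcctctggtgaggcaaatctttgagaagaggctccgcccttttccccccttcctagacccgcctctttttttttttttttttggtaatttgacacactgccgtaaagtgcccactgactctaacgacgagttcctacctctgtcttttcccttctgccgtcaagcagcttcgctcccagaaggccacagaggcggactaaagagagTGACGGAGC
Psmd9 (chr5:123227940-123228189, plus strand): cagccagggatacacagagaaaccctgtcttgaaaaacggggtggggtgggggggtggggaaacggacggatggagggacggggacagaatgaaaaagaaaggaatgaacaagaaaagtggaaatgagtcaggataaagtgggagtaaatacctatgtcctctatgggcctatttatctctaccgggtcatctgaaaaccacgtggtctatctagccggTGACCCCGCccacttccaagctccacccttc
With the shorter core TGANNNNGC, which includes all matches of the longer one, the share was 59.5% of the members and 46.3% of all genes with a window. CCAAT, on either strand, was present in 40.5% of the members and in 42.5% of all genes. A match is a stretch of letters in a window, and binding was not measured here.

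Counts on genes ranged from 31327094 to 37395732 per library, and the members held 0.718% to 0.885% of them. Counts were scaled by TMM, a method of edgeR that assumes that most genes do not change, and are given as normalized counts, at the mean effective library size. Differences were tested with edgeR's quasi-likelihood test over 12288 genes, and adjusted p-values are from the Benjamini-Hochberg method over all of them. The treatment changed most of the transcriptome, with 79.3% of the genes tested past an adjusted p of 0.05, so a call alone separates a gene little from the rest and the size of each change is given with it. A decrease is a lower level relative to the other genes under TMM. For small decreases the share of all counts was not always smaller, as with Psmc5 (−0.10 under TMM and 0.11 under total counts). Less RNA per cell and fewer cells of a kind cannot be told apart in these libraries. All 8 epithelial markers examined, among them Epcam, Krt8 and Cdh1, were detected in every library with at least 1212 counts. They were also lower after P3FI-90, with a summed level of 156275 to 164885 normalized counts in DMSO and 65512 to 68847 after treatment. The leukocyte markers summed to 30.6 to 79.9 normalized counts in DMSO and 135 to 141 after P3FI-90, with Csf1r called higher. The 3 endothelial markers summed to 0 to 13.3 in DMSO and 21.6 to 26.4 after P3FI-90, with Pecam1 called higher. The 5 fibroblast markers summed to 1411 to 1450.1 in DMSO and 1001 to 1096 after P3FI-90, nearly all of it Pdgfra, which was called lower. The part of these marker changes in the results below was not tested. The level of Kdm3b, whose product P3FI-90 inhibits, was slightly higher, with a log2 fold change of 0.13 and an SE of 0.043 (adjusted p = 0.0169). Every P3FI-90 library lay above every DMSO library for Kdm3b, as for 41.0% of all genes tested.

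Of the 49 members tested, 38 were lower and 8 were higher after P3FI-90 at an adjusted p under 0.05, against 39.4% and 39.9% of all genes tested, and 3 were neither. Scaling by total counts gave 27 lower and 11 higher, and a correction for transcript length and GC content 32 lower and 13 higher. The median log2 fold change over the members was −0.36, and it was 0.013 over all genes tested. A decrease of more than 0.5 on the log2 scale was found in 23 members, against 24.8% of all genes, and an increase of more than 0.5 in 2 members, against 26.0% of all genes. The 3 P3FI-90 libraries lay entirely below the DMSO libraries for 37 members (40.2% of all genes) and entirely above them for 8 (41.0%), and the groups overlapped for 4, where 81.2% of all genes had no overlap in either direction. For a single gene the smallest p of an exact two-sided permutation test is 0.1 with 3 libraries per group. Scaling by the total count alone raised the median over all genes to 0.23 and that over the members to −0.15, since it shifts every value by nearly the same amount. The median of the members minus that of all genes was −0.38, with −0.34 after correction for transcript length and GC content and −0.51 with no filter on low counts. Of the members, 26 moved by more than 1.5 times under total counts and 20 after the correction for transcript length and GC content, and the values that bear on a group are given with it below. The shares of 39.4% lower and 39.9% higher over all genes are also the background for the counts of each group below.

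**Figure D1:**
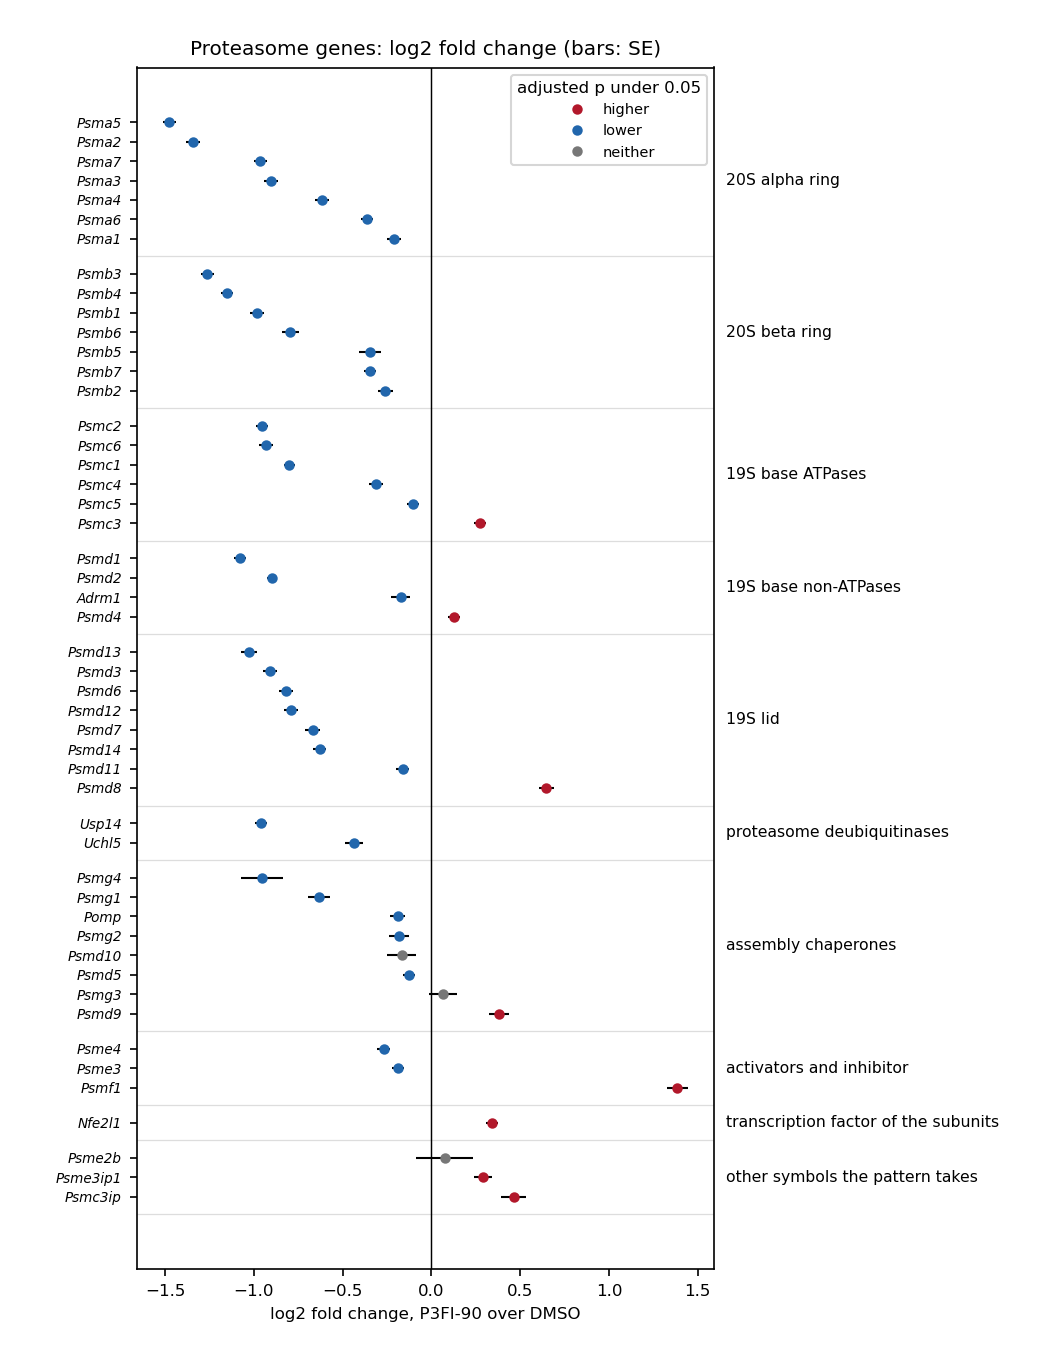
Log2 fold change (x axis, P3FI-90 over DMSO) of the 49 tested members, grouped by role, with the SE as bars and the color giving the call at an adjusted p under 0.05 from edgeR. The 14 subunits of the 20S core lie between −1.48 and −0.21, and Psmf1 lies farthest to the right at 1.39.

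The subunits of the 20S core fell. All 14 tested subunits were lower after P3FI-90, with log2 fold changes from −1.48 to −0.21 and a median of −0.85, and 9 of them fell by more than 0.5. Under scaling by total counts 11 were still called lower and none higher, with Psma1 at 0.0038 and Psmb2 and Psmb5 at −0.045 and −0.13, and after correction for transcript length and GC content 11 were lower and 1, Psmb2, higher. The summed normalized counts of the core were 105892 ± 634 in DMSO and 62408 ± 447 after P3FI-90 (SD, n = 3), a difference of 41.1%. As a share of all counts, which needs no scaling factor, they made up 0.280%, 0.282% and 0.279% in the DMSO libraries and 0.193%, 0.191% and 0.191% in the P3FI-90 libraries.

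In the alpha ring, Psma5 had the largest decrease. It had 7604, 7980.1 and 7632 normalized counts in the DMSO libraries and 2755, 2742 and 2843 in the P3FI-90 libraries, a log2 fold change of −1.48 with an SE of 0.037 (adjusted p = 1.97e-13). The level after treatment was thus 0.359 times that in DMSO, with no overlap between the groups. Psma2 fell by 60.6%, Psma7 by 48.7%, Psma3 by 46.5% and Psma4 by 34.9%. Psma6 and Psma1 had smaller decreases, by 22.3% and 13.6%, with log2 fold changes of −0.36 (SE 0.034) and −0.21 (SE 0.040). After correction for transcript length and GC content Psma1 had −0.061 (adjusted p = 0.147). The ratio of Psma5 to Psma1 counts within a library, which is free of any scaling between libraries, was 1.02 ± 0.0273 in DMSO and 0.426 ± 0.0209 after P3FI-90. The pair was chosen after the values were seen and was not tested. Psma8, the testis form of an alpha subunit, had 0 counts in all 6 libraries, which allows up to 0.0802 to 0.0958 CPM (3 counts per library, counting error only). For Psma5, 54.5% of the 50-base windows of its transcript also occur in processed pseudogenes, so its counts depend on how shared reads were assigned, while Psma1, Psma6 and Psma7 have no such window.

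In the beta ring, the decrease was largest in Psmb3, a structural subunit, with 6611, 6801 and 6557 normalized counts in the DMSO libraries and 2849, 2766 and 2699.8 in the P3FI-90 libraries. Its log2 fold change was −1.26 with an SE of 0.037 (adjusted p = 8.94e-13). Psmb4 and Psmb1, also structural, fell by 55.0% and 49.4%, and Psmb2 fell by 16.5%. For Psmb3, 55.8% of the 50-base windows also occur in pseudogenes, and for Psmb4 and Psmb2 none. All P3FI-90 libraries lay below all DMSO libraries for each of the 7 tested genes of this ring, as for 40.2% of all genes tested. That order holds for the counts scaled by TMM. After correction for transcript length and GC content the values of Psmb2 and Psmb5 were above 0, as given below.

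The catalytic subunits fell unequally. Psmb6, which carries the caspase-like activity, had 4958, 5044 and 5106 normalized counts in the DMSO libraries and 2786, 3124 and 2792 in the P3FI-90 libraries, a log2 fold change of −0.80 with an SE of 0.047 (adjusted p = 1.46e-09). Psmb7, which carries the trypsin-like activity, had 8453, 8860.5 and 8846 normalized counts in the DMSO libraries and 6934, 6825 and 6822 in the P3FI-90 libraries, a log2 fold change of −0.35 with an SE of 0.034 (adjusted p = 3.19e-07). Psmb5, the chymotrypsin-like subunit and main target of proteasome inhibitors in the clinic, had 2762, 2604 and 2845 normalized counts in the DMSO libraries and 2277, 1951 and 2228 in the P3FI-90 libraries, a log2 fold change of −0.35 with an SE of 0.062 (adjusted p = 1.39e-04). The value of Psmb6 was the lowest of the 3, and those of Psmb5 and Psmb7 differed by less than their SE. These differences between subunits were not tested. The exons of Psmb7 overlap those of Nek6 on the opposite strand over 405 bases, and Nek6 had a log2 fold change of 0.37. After correction for transcript length and GC content Psmb6 had −0.34 and Psmb7 −0.13, with both calls kept, and Psmb3 had −0.83. The value of Psmb5 was −0.13 under scaling by total counts (adjusted p = 0.0619) and 0.070 after correction for transcript length and GC content (adjusted p = 0.306), and 57.1% of its 50-base windows occur in other genes, mostly pseudogenes. After the same correction Psmb2 turned to 0.089 (adjusted p = 0.0408). Psmb11, the form that replaces Psmb5 in the thymus, had 0, 4 and 2 counts in DMSO and 0, 0 and 2 after P3FI-90 and was not tested.

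**Figure D2:**
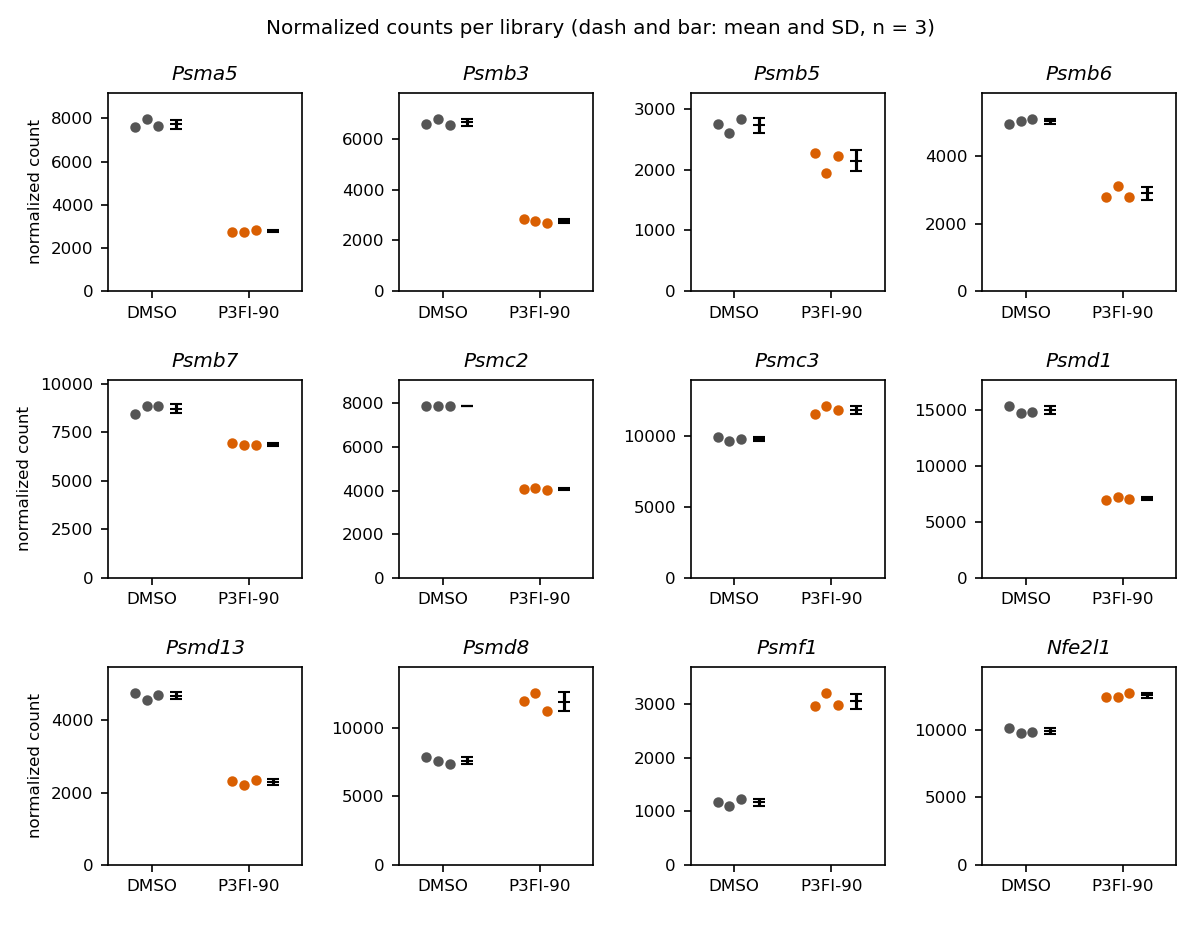
Normalized counts (y axis, from 0) of 12 members in each of the 3 DMSO and 3 P3FI-90 libraries as points, with the mean and SD beside them. The groups do not overlap in any of the 12 panels, as for 81.2% of all genes tested, and Psmc3, Psmd8, Psmf1 and Nfe2l1 are higher after treatment. All but Psmb5, Psmb6, Psmb7 and Nfe2l1 were chosen among called genes without overlap, so for them the lack of overlap follows from the choice.

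Of the 18 subunits of the 19S particle, 15 were lower and 3 were higher after P3FI-90, with log2 fold changes from −1.08 to 0.65 and a median of −0.73. Under scaling by total counts 12 were lower and 4 higher, as Psmc5 turned to 0.11, Psmd11 to 0.052 and Adrm1 to 0.042. After correction for transcript length and GC content 13 were lower and 5 higher. Their summed normalized counts were 169523 ± 1346 in DMSO and 118922 ± 2264 after P3FI-90 (SD, n = 3), a difference of 29.8%. As a share of all counts they made up 0.451%, 0.450% and 0.445% in the DMSO libraries and 0.364%, 0.372% and 0.359% in the P3FI-90 libraries, a smaller difference than that of the normalized counts.

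The ATPases of the base form a ring of 6 different subunits. Psmc2, Psmc6 and Psmc1 fell by 48.4%, 47.6% and 42.6%. Psmc2 had 7882, 7872 and 7869.8 normalized counts in the DMSO libraries and 4053, 4102 and 4031 in the P3FI-90 libraries, a log2 fold change of −0.95 with an SE of 0.033 (adjusted p = 4.30e-12). Psmc4 fell less, with a log2 fold change of −0.31 (SE 0.039), and Psmc5 had −0.10 with an SE of 0.035 (adjusted p = 0.0144), a call that was lost without P3FI-90 library 1 (−0.089, adjusted p = 0.0672). Psmc5 was called higher under total counts (0.11, adjusted p = 0.00997) and after correction for transcript length and GC content (0.11, adjusted p = 0.00398). Under the same settings Psmc4 had −0.096 and −0.086 and was still called lower. Psmc3 went the other way, with 9980, 9644 and 9803 normalized counts in the DMSO libraries and 11574, 12149 and 11862 in the P3FI-90 libraries, a log2 fold change of 0.27 with an SE of 0.033 (adjusted p = 2.84e-06). The ratio of Psmc2 to Psmc3 counts within a library was 0.803 ± 0.0132 in DMSO and 0.343 ± 0.00669 after P3FI-90, a pair chosen after the values were seen and not tested. Psmc3 overlaps Slc39a13 on the opposite strand over 215 bases of exon in GENCODE M21, and the log2 fold change of Slc39a13 was 0.24.

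The scaffold subunits of the base, Psmd1 and Psmd2, both fell. Psmd1 had 15409, 14745 and 14887 normalized counts in the DMSO libraries and 6994, 7283 and 7076 in the P3FI-90 libraries, a log2 fold change of −1.08 with an SE of 0.033 (adjusted p = 1.69e-12). Psmd2, the member with the highest counts in DMSO, went from 24979 ± 397 to 13404 ± 249 (SD of 3 libraries), a log2 fold change of −0.90 (SE 0.030). Psmd4 and Adrm1, which are ubiquitin receptors of the base, had smaller changes. Psmd4 was higher, with 7427, 7431 and 7143 normalized counts in the DMSO libraries and 7892, 8196 and 7904 in the P3FI-90 libraries, a log2 fold change of 0.13 with an SE of 0.034 (adjusted p = 0.00409). The value of Psmd4 was 0.34 under total counts (adjusted p = 4.57e-07) and 0.32 after correction for transcript length and GC content (adjusted p = 2.14e-07). Adrm1 had 4852, 4215 and 4919 normalized counts in the DMSO libraries and 4088, 4289 and 4043 in the P3FI-90 libraries, so its groups overlapped, and a log2 fold change of −0.17 with an SE of 0.053 (adjusted p = 0.00878). The call of Adrm1 was lost without DMSO library 3 (−0.14, adjusted p = 0.0529). It turned to 0.11 after correction for transcript length and GC content (adjusted p = 0.0191). In addition, 78.0% of the 50-base windows of Adrm1 occur in another gene. The ratio of Psmd1 to Psmd4 counts, again chosen after the values were seen and not tested, was 2.05 ± 0.0552 in DMSO and 0.890 ± 0.00459 after P3FI-90.

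In the lid 7 of 8 members fell, or 6 of 8 under total counts, where Psmd11 had 0.052. Psmd13 had 4762, 4571 and 4689 normalized counts in the DMSO libraries and 2319, 2207 and 2355 in the P3FI-90 libraries, a log2 fold change of −1.03 with an SE of 0.043 (adjusted p = 3.36e-11). Psmd3, Psmd6, Psmd12 and Psmd7 fell by 46.8%, 43.3%, 42.2% and 37.0%. Psmd14, the deubiquitinase of the lid, went from 7457 ± 282 to 4823 ± 76.3 (SD of 3 libraries), a log2 fold change of −0.63 (SE 0.037), and Psmd11 had −0.16 (SE 0.036). Psmd8 rose, with 7863, 7571 and 7357 normalized counts in the DMSO libraries and 11968, 12560.3 and 11196 in the P3FI-90 libraries, a log2 fold change of 0.65 with an SE of 0.043 (adjusted p = 4.92e-09). Every P3FI-90 library was above every DMSO library for Psmd8, none of its windows occurs in another gene, and no other gene overlaps its exons. Its value ranged from 0.61 to 0.86 over the alternatives. The ratio of Psmd13 to Psmd8 counts was 0.616 ± 0.0188 in DMSO and 0.193 ± 0.0173 after P3FI-90, for the lowest and highest values of the lid, and was not tested. Psmd13 shares 342 bases of exon with Sirt3 on the opposite strand, and Sirt3 had a log2 fold change of 1.46, against that of Psmd13.

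**Figure D3:**
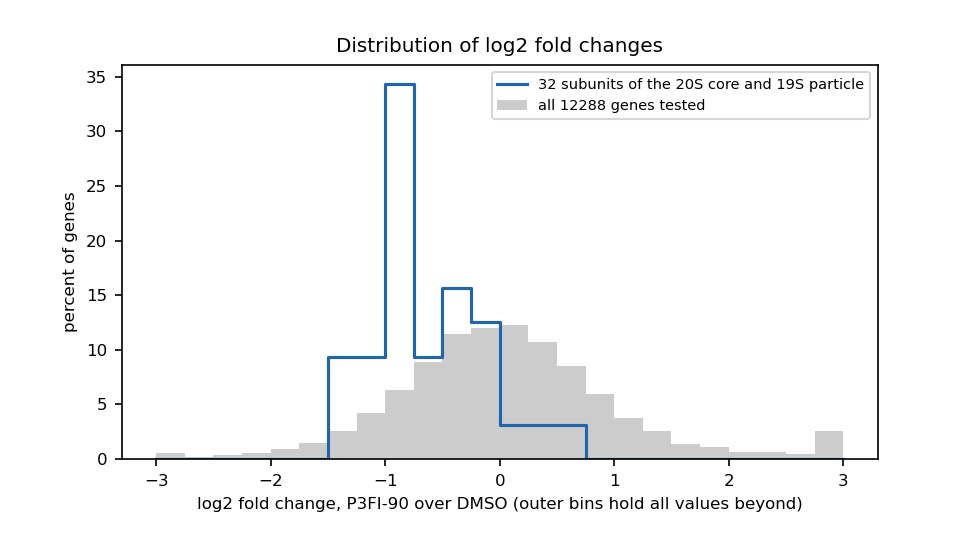
Percent of genes (y axis) by log2 fold change (x axis, bins of 0.25) for the 32 tested subunits of the 20S core and 19S particle (line) and all 12288 genes tested (gray). The bin from −1 to −0.75 holds 34.4% of the subunits and 6.31% of all genes, and 3 subunits lie above 0 (the outermost bins also hold all larger changes).

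The deubiquitinases that bind the 19S particle both fell. Usp14, which trims ubiquitin chains on substrates, had 8111, 8022 and 7815 normalized counts in the DMSO libraries and 4055, 4105 and 4149 in the P3FI-90 libraries, a log2 fold change of −0.96 with an SE of 0.034 (adjusted p = 6.03e-12). Uchl5, which is recruited by Adrm1, had 3884, 4243 and 4385 normalized counts in the DMSO libraries and 3192, 2957 and 3097 in the P3FI-90 libraries, a log2 fold change of −0.44 with an SE of 0.051 (adjusted p = 2.01e-06). The P3FI-90 libraries lay below the DMSO libraries without overlap for both genes, as for 40.2% of all genes tested. The exons of Usp14 overlap those of Thoc1 on the opposite strand over 2169 bases, and Thoc1 had a log2 fold change of 0.22.

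Of the 8 assembly chaperones, 5 were lower, 1 higher and 2 neither, with a median log2 fold change of −0.18, and scaling by total counts gave 2 lower and 3 higher. Psmg4 had 434, 425 and 450.1 normalized counts in the DMSO libraries and 249, 201 and 227 in the P3FI-90 libraries, a log2 fold change of −0.95 with an SE of 0.12 (adjusted p = 3.89e-06). Psmg1, which with Psmg2 starts the alpha ring, had a log2 fold change of −0.63 (SE 0.061), while Psmg2 had −0.18 (SE 0.057) and Psmg3, the partner of Psmg4, 0.066 with an SE of 0.077 (adjusted p = 0.444). Psmg3 was called higher under total counts (0.28, adjusted p = 0.00412) and after correction for transcript length and GC content (0.48, adjusted p = 2.68e-05). The same correction gave −0.36 for Psmg4, −0.35 for Psmg1 and −0.023 for Psmg2 (adjusted p = 0.00984, 7.75e-05 and 0.724). Pomp, which completes the maturation of the core, had 4924, 4804 and 5002 normalized counts in the DMSO libraries and 4501, 4088 and 4329 in the P3FI-90 libraries, a log2 fold change of −0.19 with an SE of 0.041 (adjusted p = 6.85e-04), or 0.025 under total counts.
Among the chaperones of the 19S base, Psmd9 rose, Psmd5 was lower and Psmd10 was not called. Psmd9 had 1376, 1343 and 1339 normalized counts in the DMSO libraries and 1740.4, 1663 and 1873 in the P3FI-90 libraries, a log2 fold change of 0.38 with an SE of 0.056 (adjusted p = 2.50e-05). Psmd5 had −0.12 (SE 0.034), and 0.090 under total counts, and Psmd10 had −0.17 (SE 0.082) with overlapping groups (adjusted p = 0.0747). The call of Psmd10 was gained without DMSO library 1 (−0.26, adjusted p = 0.00536). The exons of Psmd9 share 1849 bases with a long noncoding gene on the opposite strand that is not analysed here.

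Psmf1 had the largest increase of all members. It encodes PI31, a protein named for its inhibition of the 20S core in vitro. It had 1181, 1091 and 1225 normalized counts in the DMSO libraries and 2956, 3209 and 2985 in the P3FI-90 libraries, a log2 fold change of 1.39 with an SE of 0.058 (adjusted p = 3.26e-11). The level after treatment was 2.61 times that in DMSO, and an increase of more than 1 on the log2 scale was found in 12.7% of all genes tested. No other gene overlaps its exons or shares its windows, and its value ranged from 1.32 to 1.60 over the alternatives. Psme4 and Psme3 encode activators that cap the core in place of the 19S particle. Psme4 had 5856, 6134 and 6226 normalized counts in the DMSO libraries and 5153, 4995 and 4968 in the P3FI-90 libraries, a log2 fold change of −0.27 with an SE of 0.037 (adjusted p = 1.05e-05), with −0.055 under total counts (adjusted p = 0.188) and −0.59 after correction for transcript length and GC content (adjusted p = 6.64e-10). Psme3 had −0.19 (SE 0.034), and 0.028 under total counts.

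Nfe2l1 was higher after P3FI-90. It had 10160.1, 9765 and 9833 normalized counts in the DMSO libraries and 12465, 12472 and 12754 in the P3FI-90 libraries, a log2 fold change of 0.34 with an SE of 0.032 (adjusted p = 2.01e-07), and every treated library lay above every DMSO library. The value ranged from 0.29 to 0.56 over the alternatives. Of the 8 members that hold the core of the antioxidant response element, 7 were lower and 1, Psmd9, was higher, beside 38 and 8 of the 49 members and 39.4% and 39.9% of all genes. Under total counts 4 were lower and 1 higher, and after correction for transcript length and GC content 5 were lower and 2, Adrm1 and Psmd9, higher. The log2 fold changes lay between −0.93 (Psmc6) and 0.38 (Psmd9). The 3 other genes that the symbols took in are no subunits of the proteasome or are close copies. Psmc3ip, a factor of meiotic recombination, had 794, 756 and 839.9 normalized counts in the DMSO libraries and 1166, 1069 and 1064 in the P3FI-90 libraries, a log2 fold change of 0.46 with an SE of 0.070 (adjusted p = 2.84e-05). Psme3ip1, which binds Psme3, had 0.29 (SE 0.050). Psme2b is a near copy of Psme2, with 69.3% of its windows in other genes, and had 0.075 with an SE of 0.16 (adjusted p = 0.680), or 0.41 after correction for transcript length and GC content (adjusted p = 0.0262).

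**Figure D4:**
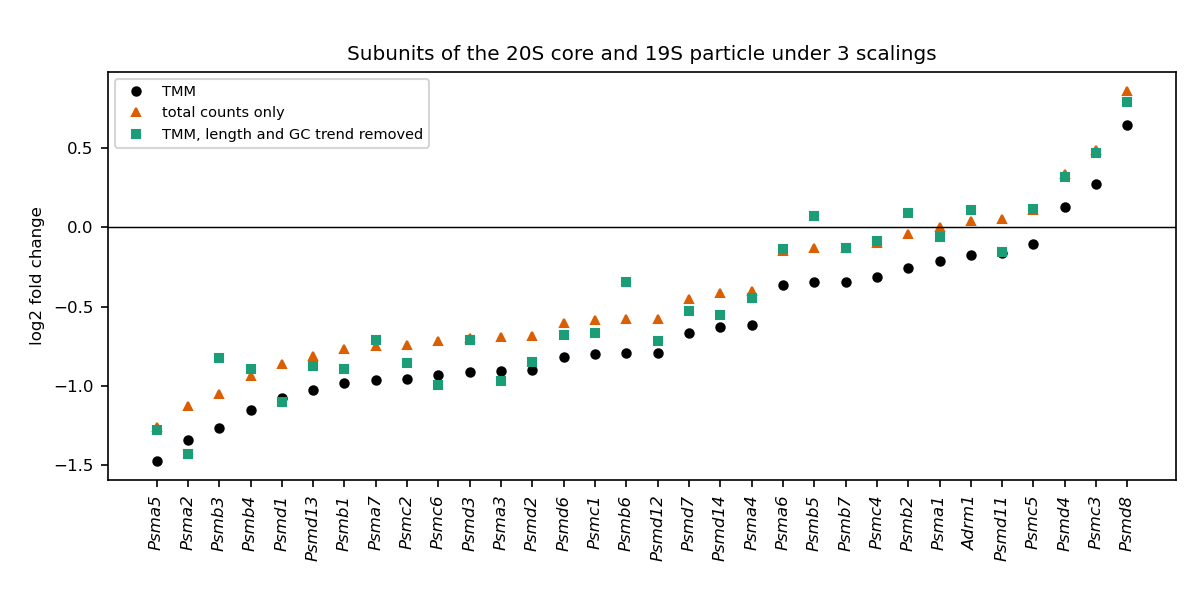
Log2 fold change (y axis) of the 32 tested subunits under TMM, total counts only, and TMM after correction for transcript length and GC content. Psma5 remains lowest or second lowest and Psmd8 highest under each, and several subunits near 0 change sign.

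The surroundings of NRF1 were examined through a mixed list of 14 genes. It holds genes that process NRF1, its small MAF partners, ligases that lead to its degradation, and related factors. P3FI-90 raised 10 genes of the list and lowered 3, with 1 uncalled, against 39.9% higher and 39.4% lower of all genes tested. These counts describe the whole list and not the processing genes alone. The median log2 fold change was 0.39, and scaling by total counts gave 10 higher and 2 lower, as the call of Btrc was lost. The small MAF genes, whose products pair with NRF1 and NRF2, all rose. Maff had 989.7, 996 and 950.2 normalized counts in the DMSO libraries and 3927, 3871 and 3830.3 in the P3FI-90 libraries, a log2 fold change of 1.99 with an SE of 0.049 (adjusted p = 1.83e-13). Mafk had 1069.6, 1067 and 1241 normalized counts in the DMSO libraries and 3596, 3576 and 3495 in the P3FI-90 libraries, a log2 fold change of 1.66 with an SE of 0.061 (adjusted p = 9.51e-12). Mafg had a log2 fold change of 0.92 (SE 0.038). NRF1 is drawn out of the endoplasmic reticulum, deglycosylated by NGLY1 and cut by the protease DDI2. Ngly1 went from 597 ± 37.0 to 1209 ± 103 (SD of 3 libraries), a log2 fold change of 1.02 (SE 0.080), and Ddi2 had 2696, 2581 and 2635 normalized counts in the DMSO libraries and 5048, 4828 and 5331 in the P3FI-90 libraries, a log2 fold change of 0.94 (SE 0.045). After correction for transcript length and GC content Ddi2 had 0.52 (adjusted p = 1.78e-08). Ddi2 shares 1749 bases of exon with Rsc1a1 on the same strand, and 17.9% of its windows occur in that gene.
The ATPase that draws proteins out of the membrane, VCP, moved against its cofactors. Vcp had 21062, 20764 and 22075 normalized counts in the DMSO libraries and 8053, 8043 and 7960.3 in the P3FI-90 libraries, a log2 fold change of −1.41 with an SE of 0.033 (adjusted p = 1.14e-13). Its cofactor Ufd1 had 0.90 (SE 0.042) and Nploc4 0.23 (SE 0.034). The ratio of Vcp to Ufd1 counts within a library, chosen after the values were seen and not tested, was 9.16 ± 0.225 in DMSO and 1.84 ± 0.0235 after P3FI-90. For Vcp, 60.1% of the windows also occur in a processed pseudogene. Vcp also shares 352 bases of exon with 1700022I11Rik on the opposite strand, which had a log2 fold change of −1.78. Ufd1 shares 209 bases with Cdc45 on the opposite strand, which had 0.71. Of the ligases that lead NRF1 to degradation, Syvn1 and its partner Sel1l had 0.31 (SE 0.052) and 0.47 (SE 0.043), Fbxw7 had 0.23 with an SE of 0.083 (adjusted p = 0.0227) and Btrc −0.34 (SE 0.072). The call of Fbxw7 was lost without DMSO library 1 or 3 or without P3FI-90 library 1 or 3 (adjusted p = 0.0578, 0.111, 0.0599 and 0.0639), with upper-quartile factors (adjusted p = 0.0533) and after correction for transcript length and GC content (0.080, adjusted p = 0.368). Of the related factors, Nfe2l2, which encodes NRF2, fell, with a log2 fold change of −0.69 (SE 0.040), and Nfe2l3 had 0.21 with an SE of 0.20 (adjusted p = 0.336).

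Genes for the supply of ubiquitin were mostly lower. Of 4 genes for ubiquitin and its activating enzymes, 3 were lower, 0 higher and 1 neither, against 39.4% lower and 39.9% higher of all genes tested. The counts were 3 lower and 0 higher also under total counts and after correction for transcript length and GC content. Ubb, a polyubiquitin gene, had 23932, 22431 and 22936 normalized counts in the DMSO libraries and 10293, 10687 and 10288 in the P3FI-90 libraries, a log2 fold change of −1.15 with an SE of 0.034 (adjusted p = 1.01e-12). The main activating enzyme Uba1 had 29503, 28100.1 and 30306 normalized counts in the DMSO libraries and 20411, 20016 and 20079 in the P3FI-90 libraries, a log2 fold change of −0.54 (SE 0.032), and Uba6, another activating enzyme, had 3267, 3414 and 3458 normalized counts in the DMSO libraries and 2623, 2475 and 2658 in the P3FI-90 libraries, a log2 fold change of −0.39 (SE 0.047). Rps27a, which encodes ubiquitin fused to a ribosomal protein, had −0.27 with an SE of 0.15 (adjusted p = 0.120), or 0.086 after the same correction. The DMSO value of Rps27a was 24306 ± 7463 normalized counts, and without DMSO library 2 its log2 fold change was −0.48 (adjusted p = 3.90e-05). For Ubb, 61.0% of the windows were shared with other genes.

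Among 14 genes for shuttle factors and proteins that bind the proteasome, 5 were higher and 9 lower, against 39.9% and 39.4% of all genes tested. Scaling by total counts gave 6 higher and 5 lower, with Rad23b, Ubqln1 and Sem1 turned to 0.11, 0.0093 and 0.048 and the call of Ecpas lost (−0.071, adjusted p = 0.0929). 1 of the higher genes, Ddi2, is also on the list for NRF1. The largest increase was in Zfand2a, which encodes AIRAP, a proteasome-associated protein induced by arsenite. Zfand2a had 702, 696 and 658 normalized counts in the DMSO libraries and 7619, 7394 and 7574 in the P3FI-90 libraries, a log2 fold change of 3.46 with an SE of 0.044 (adjusted p = 3.91e-16). The groups were far apart, and the largest increase among the members, that of Psmf1, was smaller. Zfand2b, a paralog of Zfand2a, had 0.47 (SE 0.10), and Zfand5, another gene of the list, had −0.62 (SE 0.073). Ubqln2, which carries ubiquitinated proteins to the proteasome, had the largest decrease, with 1677, 1681 and 1808 normalized counts in the DMSO libraries and 387, 466 and 439.8 in the P3FI-90 libraries, a log2 fold change of −2.00 with an SE of 0.076 (adjusted p = 1.27e-11). Ubqln4 and Ubqln1 had −0.55 (SE 0.034) and −0.20 (SE 0.035), and the shuttle gene Rad23b −0.10 (SE 0.031). Akirin2, which brings proteasomes into the nucleus, had 0.59 (SE 0.049), and the importin gene Ipo9 0.088 with an SE of 0.035 (adjusted p = 0.0341). The call of Ipo9 was lost with the replicate number as a block (adjusted p = 0.0725) and without library 2 or 3 of either group (adjusted p = 0.104 and 0.119 for DMSO, 0.118 and 0.126 for P3FI-90). It was also lost with upper-quartile factors and with no filter on low counts (adjusted p = 0.212 and 0.0572), and after correction for transcript length and GC content Ipo9 was called lower (−0.15, adjusted p = 5.28e-04). Ecpas, Ube3c and Txnl1, whose products bind the proteasome, had −0.29 (SE 0.037), −0.41 (SE 0.037) and −0.51 (SE 0.040). Sem1, a small subunit of the lid whose symbol lies outside the choice of members, had −0.17 with an SE of 0.061 (adjusted p = 0.0230), and its call was lost without DMSO library 1 or P3FI-90 library 3 (adjusted p = 0.108 and 0.0927).

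**Figure D5:**
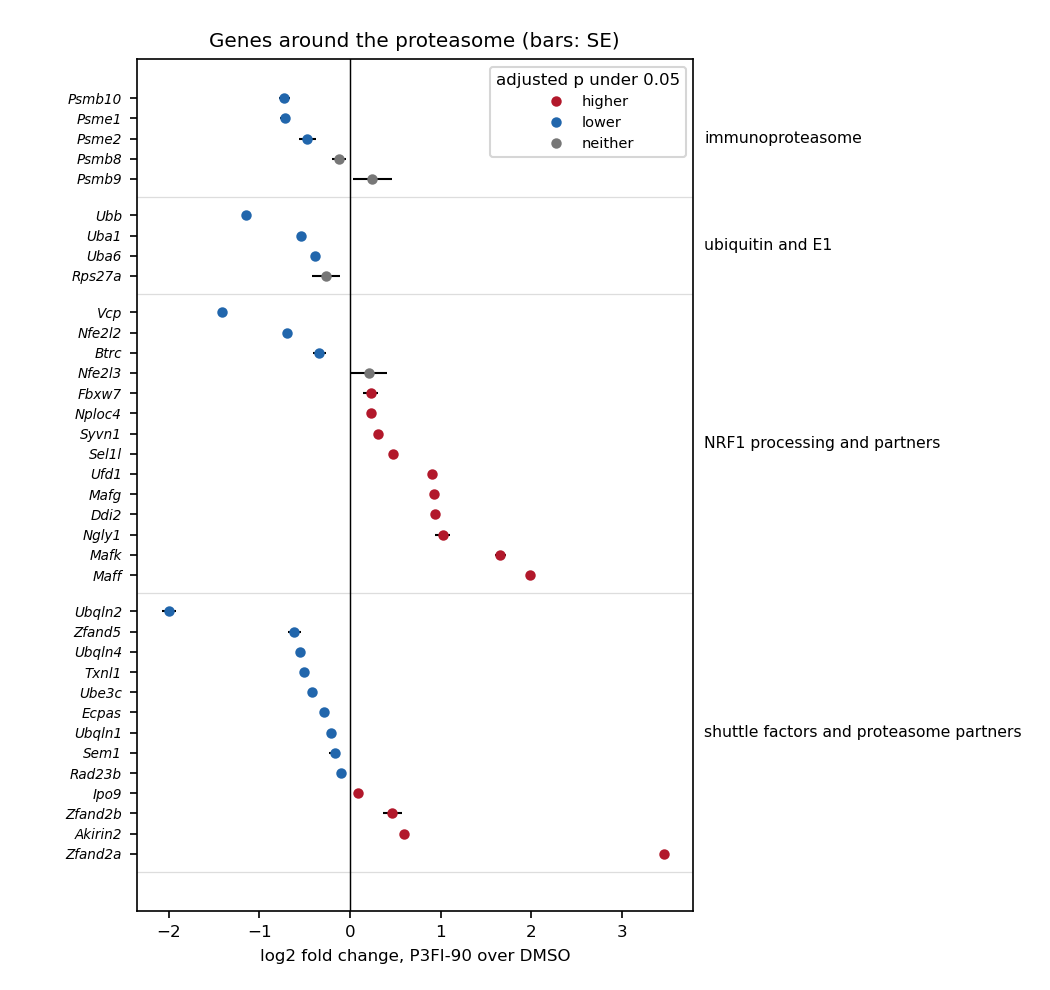
Log2 fold change (x axis, P3FI-90 over DMSO) of the 36 genes of 4 lists around the proteasome, with the SE as bars and the color giving the call at an adjusted p under 0.05. Zfand2a at 3.46 and the small MAF genes lie to the right, and Ubqln2, Vcp and Ubb to the left.

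The genes of the immunoproteasome were lower or not called. Of 5 genes, 3 were lower, 0 higher and 2 neither, against 39.4% lower and 39.9% higher of all genes tested. The counts of lower and higher genes were the same under total counts. After correction for transcript length and GC content 2 were lower and 1 higher, as Psme2 had −0.13 (adjusted p = 0.226) and Psmb9 0.51 (adjusted p = 0.0387). Psmb10, the trypsin-like subunit of the immunoproteasome, had 1329.7, 1278 and 1328 normalized counts in the DMSO libraries and 774, 823 and 784 in the P3FI-90 libraries, a log2 fold change of −0.73 (SE 0.061). Psme1 and Psme2 form the activator that interferon induces. Psme1 had 3328, 3318 and 3033 normalized counts in the DMSO libraries and 2020.2, 2045 and 1835 in the P3FI-90 libraries, a log2 fold change of −0.71 (SE 0.057). Psme2 had 2111, 1898 and 1909 normalized counts in the DMSO libraries and 1163, 1463 and 1645 in the P3FI-90 libraries, a log2 fold change of −0.47 (SE 0.095), and shares 59.3% of its windows with other genes. Psmb8 had 615, 606 and 629 normalized counts in the DMSO libraries and 539.9, 563 and 597 in the P3FI-90 libraries, a log2 fold change of −0.12 with an SE of 0.081 (adjusted p = 0.175), and Psmb9 had 0.25 with an SE of 0.21 (adjusted p = 0.295). Set against the constitutive subunit that each replaces, the ratios of counts within a library differed in both directions. The ratio of Psmb9 to Psmb6 was 0.0163, 0.0153 and 0.0172 in DMSO and 0.0316, 0.0345 and 0.0344 after P3FI-90, a 2.06-fold difference. In this pair Psmb6 had a log2 fold change of −0.80. Psmb9, which was not called, went from 81.9 ± 5.41 to 97.3 ± 10.0 normalized counts (SD of 3 libraries). The ratio of Psmb8 to Psmb5 differed by 0.23 on the log2 scale and that of Psmb10 to Psmb7 by −0.38. For each of the 3 ratios the groups did not overlap, and the exact two-sided permutation test gave p = 0.1, or 0.1 after adjustment over the 3, the smallest p this design allows. The exons of Psmb9 overlap those of Tap1 on the opposite strand over 212 bases, and Tap1 had a log2 fold change of 0.99.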

How the data were processed

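RNA-seq counts of 4T1 cells treated with DMSO or 10 µM P3FI-90 for 24 h (3 libraries per group, by the Illumina mRNA-Seq kit on an Illumina NovaSeq) were used. The authors deposited whole-number read counts per gene without normalization. The submitters' processing notes name CASAVA, HISAT2, StringTie and GRCm39. The counting tool, annotation and strandedness are not given in the sources used here, so reads of overlapping genes cannot be separated by strand. Of 22401 rows, 296 without a gene identifier (0.483% to 0.556% of the counts of a library) were left out. Depth was 31327094 to 37395732 counts per library, and intervals cover counting error only. More genes had a count of 2 than of 1, so whether both mates of a pair were counted is unknown.

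Genes were filtered with filterByExpr, normalized by TMM and tested with the quasi-likelihood test of edgeR 4.0.16 in R 4.3.3, without a batch or pairing term. The study names limma, which was run as an alternative. The SE is the absolute log2 fold change divided by the square root of F. Transcript length, GC content, exon overlaps and 50-base windows shared with other genes came from GENCODE M21, and promoter windows from RefSeq (GRCm38.p6). No coordinates of the files were used. Libraries of a group differed by more than counting noise (chi-square per gene between 5.44 and 8.43). Alternatives were other size factors, filters and tests (DESeq2 1.42.0, limma 3.58.1), a replicate block, halved counts, removal of the length and GC trend by natural splines, and each library left out. In simulated data the test found 94 of 100 genes changed by 1 on the log2 scale and 84 of 100 changed by 0.5, with 2.20% false calls, over 12288 genes. Only 200 of these genes were changed, up and down alike, with the same spread set for every gene. In the data 79.3% of the genes were called, so the simulation does not give the rate of false calls there. Members and lists were chosen with earlier results of these data known, so no list was tested as a set. Values of each library are given for the catalytic subunits, Nfe2l1, Pomp, Adrm1, Usp14 and Uchl5, for the largest rise and fall of each role group among called genes without overlap, and for up to 3 called genes of each other list. Psmb8 and the further pathway genes were named after their values were seen. A few genes of the marker and pathway lists are not reported here, and the counts of the pathway lists leave them out.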

Additional observations from a re-analysis of the deposited data

How the results depend on the processing

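Of the 49 tested members, 35 kept their direction and their side of the threshold in all 17 alternatives. The median over the members ranged from −0.39 to −0.35 with each library left out, and was −0.15 under total counts, −0.40 with upper-quartile factors and −0.41 with no filter on low counts. Total counts raised the value of every tested member and pathway gene and turned the log2 fold changes to Psmc5 0.11, Adrm1 0.042, Psmd11 0.052, Psma1 0.0038, Psme3 0.028, Pomp 0.025, Psmg2 0.030, Psmd10 0.046, Psmd5 0.090, Psmb8 0.091, Rad23b 0.11, Ubqln1 0.0093, Sem1 0.048. They gave 2 higher ATPases of the base, 3 higher and 2 lower assembly chaperones, 0 lower activators and 5 lower shuttle factors and partners. After correction for transcript length and GC content, 13 members were higher, among them 1 in the 20S core, which lies in the beta ring, and 5 in the 19S particle (2 ATPases and 2 other base subunits among them), with 2 assembly chaperones and 1 immunoproteasome gene, and the reversed log2 fold changes were Psmc5 0.11, Adrm1 0.11, Psmb5 0.070, Psmb2 0.089, Psmb8 0.11, Rps27a 0.086, Ipo9 −0.15. With a library left out, Psme2b ranged from −0.12 to 0.27. The causes were not tested. Equally numbered libraries showed no shared shift (their deviations correlated by −0.021, 0.015 and 0.0049), which cannot show whether they were prepared together. The replicate block left the median over the members at −0.36, with 38 lower and 8 higher, and changed no call but that of Ipo9. The core of the response element was found in 59.5% of the members in its shorter form. Depth limits Psma8 and Psmb11, which were at or near 0.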
